A study of Rattus norvegicus with 16 samples.

Results

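Cd36, the membrane transporter and scavenger receptor that carries long-chain fatty acids into cells, was followed in rat lung together with 7 other genes of fatty acid uptake and handling: Fabp3, Fabp4, Fabp5, Lpl, Plin2, Pparg and Acsl1. The members were all probe sets whose platform annotation gives 1 of these 8 symbols and no other, out of 10411 genes with such a probe set on the array. They comprised 10 probe sets, since Plin2 and Acsl1 had 2 each, and all 10 passed the filter on dim probe sets and were tested. RNA was taken from the lungs of rats of the spontaneously hypertensive (SH) strain, which is inbred and has high blood pressure, and of Sprague Dawley (SD) rats, an outbred stock, each exposed to air alone or to sulfur dioxide (SO2), an airway irritant. The 4 groups, SH air, SH SO2, SD air and SD SO2, held 4 arrays each, which the submitters describe as biological replicates. No transgene or deletion is named for any group. The sources used here do not state the concentration of SO2, the length of exposure, the age of the rats or the SH substrain.

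Fatty acids reach lung cells mostly from lipoproteins and albumin in blood. Lpl, lipoprotein lipase, frees them from triglyceride at the vessel wall, Cd36 helps them across the plasma membrane, the Fabp proteins bind them in the cytosol, Acsl1 activates them to acyl-CoA, and Plin2 coats the droplets in which they are stored. Pparg is a fatty acid-sensing nuclear receptor whose known targets include Cd36, Fabp4, Lpl and Plin2. In lung these genes are used by capillary endothelium, by macrophages and by alveolar type II cells, which make surfactant lipid. Many colonies of the SH rat are known to carry a defective Cd36 gene. No genome sequence of these animals was analysed here.

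The rat genome holds neighbouring copies of Cd36 on chromosome 4, among them Cd36l1, and the annotation of 1 further probe set (1386901_at) gives both Cd36l1 and Cd36. It is not a member and its values are given beside those of Cd36; signal from near-identical copies cannot be split by these probe sets with certainty, also for the Cd36 probe set itself. The 250 bases before 1 RefSeq transcript start of each copy are shown because Cd36 carries the main result below and because its copy shares a probe set with it. Both are on the plus strand of the GRCr8 assembly, at chr4:18246332-18246581 for Cd36 and chr4:18316556-18316805 for Cd36l1. For Cd36l1 this is the start of the annotated gene; for Cd36 it lies inside the annotated gene (chr4:18209088-18302142), which begins upstream of it, so other starts of Cd36 are not shown. The sequences come from the reference genome and not from SH or SD rats. Capitals mark a match to the TATA box letters TATAAA, which in Cd36 lies on the minus strand and so reads TTTATA, with its first base at -175 from that transcript start.
Cd36: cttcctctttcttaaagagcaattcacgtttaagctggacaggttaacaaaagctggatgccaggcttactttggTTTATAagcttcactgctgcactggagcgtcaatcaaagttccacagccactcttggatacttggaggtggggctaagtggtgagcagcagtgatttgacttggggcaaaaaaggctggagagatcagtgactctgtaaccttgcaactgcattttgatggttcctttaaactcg
Cd36l1: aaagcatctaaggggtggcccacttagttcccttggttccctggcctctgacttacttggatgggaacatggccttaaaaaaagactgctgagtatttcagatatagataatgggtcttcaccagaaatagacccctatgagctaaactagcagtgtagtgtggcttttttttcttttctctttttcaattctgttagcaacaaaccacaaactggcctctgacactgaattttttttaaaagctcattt

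RefSeq promoter windows, which run from 250 bases before to 50 after a start, were at hand for 5 of the 8 members (Cd36, Fabp3, Plin2, Pparg and Acsl1), 7 windows in all. The letters TATAAA, searched on both strands, were in 2 of these 7 windows and in 14.2% of all 33469 windows. The direct repeat of AGGTCA with 1 base (N) between its 2 copies, a form of the element that Pparg binds with its partner Rxr, was on neither strand of the 7 windows and was in 0.0538% of all windows. The window of Cd36l1 held no TATAAA. These are matches of letters and say nothing of binding.

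All 16 arrays had been scaled alike, with mean signals of 500.099 to 500.111 after the highest and lowest 2% were left out. Markers of lung were bright on every array; Sftpc, which encodes surfactant protein C, lay between 24004 and 45111. The ratio of 3' to 5' actin signal, which rises as RNA is degraded, ran from 1.29 to 3.12. It was highest on SH SO2 replicate 1, at 3.12, and SD SO2 replicate 2, at 2.94. The array labelled SD air replicate 2 stood apart from its group. To place each array between the strains, 88 other probe sets that differed between SH and SD rats in SO2 were put on a scale from 0 (their SH SO2 mean) to 1 (their SD SO2 mean). The median position was 0.345 on SD air replicate 2. The remaining SD air arrays lay at 0.759 to 0.869 and the SH air arrays at 0.1 to 0.303. On SD air replicate 2, 63 of the 88 probe sets were nearer the SH mean. Differences that use SD rats in air are therefore given also without this array.

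Signals below are deposited intensities on a linear scale, given in the order of replicates 1 to 4, and means are ± SD with n = 4. Differences are on the scale of log2(signal + 16) with their standard error (SE), from 1 limma fit over all 16 arrays, with Benjamini-Hochberg adjustment of p over all 11107 probe sets tested. Called means an adjusted p under 0.05. Nothing in the labels ties replicates to separate litters or days, so p-values measure the spread between these samples.

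Cd36 was lower in SH than in SD lung under SO2, by 6.0-fold in mean signal, and was the 1 member called in any comparison. Its signals were 208.8, 234.4, 300.5 and 305.1 in SH SO2 lungs. In SD SO2 lungs they were 1394.9, 875.4, 2344.6 and 1680.8. The highest SH value was below the lowest SD value, so the groups did not overlap. The means were 262.2 ± 48.1 and 1574 ± 612, and the difference was -2.45 (SE 0.345, 95% interval -3.17 to -1.72; limma adjusted p = 0.000731). Cd36 ranked 13th by p among all probe sets of this comparison. The difference was called in each of 27 other settings of the analysis, where it lay between -2.70 and -2.23. Many of these settings, such as leaving out an air array or changing the filter, cannot move the estimate. They kept it at -2.45 and changed only its SE and adjusted p. The lowest value of each group, 208.8 and 875.4, was on its array of highest actin ratio. With that ratio and the 10th percentile of signal as covariates, the difference was -2.36 (SE 0.345, limma adjusted p = 0.00195).

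In air, Cd36 had the same direction and was not called with all arrays. Its signals were 915, 465.9, 342 and 383.9 in SH air lungs, and 2495.4, 655.1, 1210.6 and 1610.9 in SD air lungs. SD air replicate 2, the array that stood apart, had the lowest SD value and lay below SH air replicate 1, the highest SH value, so the groups overlapped through these arrays. The means were 526.7 ± 264 and 1493 ± 775, a difference of -1.43 (SE 0.345; limma adjusted p = 0.179). Without SD air replicate 2 the SD mean was 1772 ± 657 (n = 3), the groups did not overlap and the difference was called, at -1.77 (SE 0.320, limma adjusted p = 0.0107). With SH air replicate 1 left out as well, a choice made after seeing the data, it was -2.06 (limma adjusted p = 0.00141). Over the 27 other settings of the comparison in air the limma adjusted p ran from 0.00141 to 0.9999. Only 2 of them called Cd36, both without SD air replicate 2. The highest adjusted p came with the number in the sample title as a covariate (-1.30, SE 0.499). SH air arrays held title numbers 40 to 43, before all others, and SD air arrays 45, 46, 54 and 55. Comparisons that use SH air are thus partly confounded with title order.

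**Figure D1:**
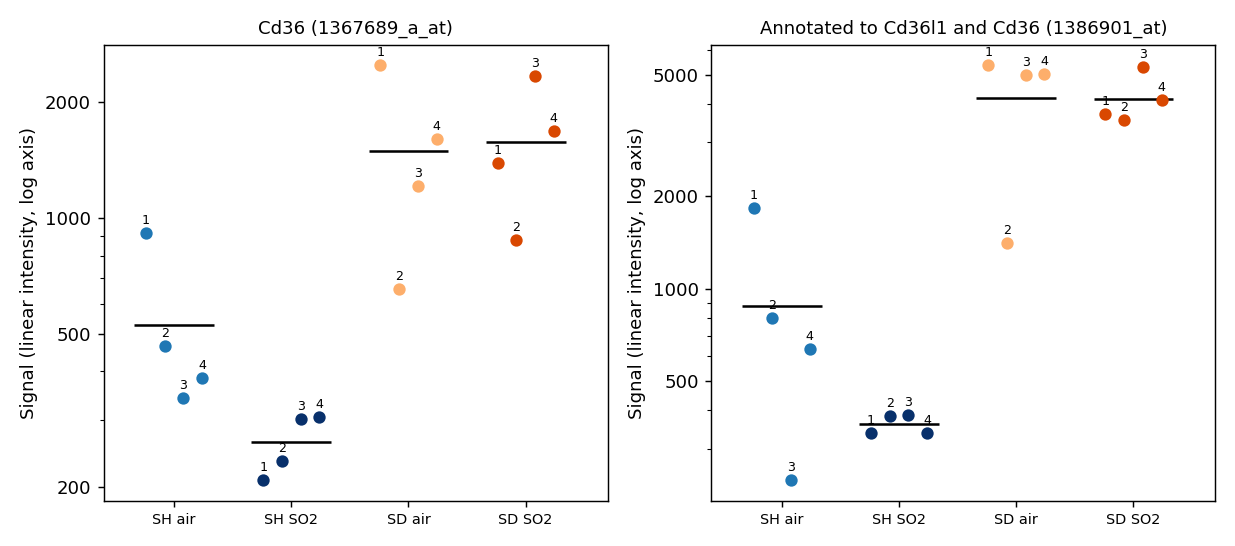
Signal (linear intensity, log axis) of the Cd36 probe set (left) and of the probe set annotated to both Cd36l1 and Cd36 (right) in the 4 groups; each point is 1 array with its replicate number, and bars are group means (n = 4). In both panels the SH SO2 arrays lie below all SD SO2 arrays, and SD air replicate 2 is the lowest SD air array, at 655.1 and 1413.1.

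The probe set annotated to both Cd36l1 and Cd36 was likewise lower in SH than in SD lungs under SO2. Its signals were 337.2, 384.7, 387.4 and 337.5 in SH SO2 lungs, and 3726, 3546.8, 5293.1 and 4121.1 in SD SO2 lungs. These groups stood far apart, with an 11.5-fold difference in mean signal and -3.46 on the log2 scale (SE 0.432; limma adjusted p = 0.00023). It was called in all 27 other settings too. In air the signals were 1825.8, 799, 236.7 and 636.2 in SH lungs, and 5356.2, 1413.1, 4964.8 and 5007.6 in SD lungs. SH air replicate 1 and SD air replicate 2 again lay nearest the other strain and overlapped. The difference in air, -2.40 (SE 0.432), just missed the threshold with all arrays (limma adjusted p = 0.0503). It was -2.86 without SD air replicate 2 (SE 0.384, limma adjusted p = 0.000704). Over the 27 other settings of the comparison in air the limma adjusted p ran from 1.29e-05 to 0.9999, and 4 of them called this probe set. The highest again came with the title number as a covariate (-2.12, SE 0.619).

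SO2 itself did not move Cd36 past the threshold in either strain. In SH rats the 4 SO2 values were all below the 4 air values, with a difference of -0.87 (SE 0.345, 95% interval -1.59 to -0.15; limma adjusted p = 0.948). SH air replicate 1 weighed in this value, which was -0.58 without it. The probe set annotated to both copies overlapped between these groups, since SH air replicate 3, at 236.7, lay below all SH SO2 values. Its difference was -0.90 (SE 0.432; limma adjusted p = 0.948), and -1.40 to -0.44 with single arrays left out. In SD rats the air and SO2 values overlapped, with a difference of 0.15 (SE 0.345; limma adjusted p = 0.944) that turned to -0.19 without SD air replicate 2 (limma adjusted p = 0.922). The probe set of both copies likewise went from 0.15 (SE 0.432; limma adjusted p = 0.950) to -0.31 (SE 0.384; limma adjusted p = 0.878). The difference between the effects on Cd36 was -1.02 (SE 0.488, 95% interval -2.04 to 0.00; limma adjusted p = 0.981), and -0.68 without SD air replicate 2 (SE 0.436; limma adjusted p = 0.884). For the probe set of both copies it was -1.06 (SE 0.610; limma adjusted p = 0.981), and -0.60 without that array (SE 0.524; limma adjusted p = 0.923). For Cd36 it was not called in any of 26 other settings, where it ran from -1.31 to -0.38. Ordered by mean, Cd36 thus stood highest in SD SO2 lungs, then in SD air, SH air and SH SO2 lungs, and of these neighbours none was separated by a called difference with all arrays.

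The position of each air array between the strains and its Cd36 signal can be set side by side. The scale runs between means of SO2 arrays, and the 88 probe sets were chosen by their difference between these. The SO2 arrays therefore lie near 0 and 1 by construction. Cd36 was called in the same comparison, so these arrays give no test of a relation between position and Cd36. The air arrays did enter the filter and the estimate of spread in the fit that chose the 88 probe sets, so that choice was not independent of them. SH air replicate 1, at a position of 0.303, had the highest Cd36 signal of the SH air arrays. SD air replicate 2, at 0.345, had the lowest of the SD air arrays. Among the remaining SD air arrays position and Cd36 did not keep the same order. Replicate 3 lay at 0.869 with a Cd36 signal of 1210.6, replicate 1 at 0.838 with 2495.4 and replicate 4 at 0.759 with 1610.9. Of the remaining SH air arrays, replicate 3 lay at 0.1 with 342, replicate 2 at 0.217 with 465.9 and replicate 4 at 0.221 with 383.9. The part of position in the Cd36 differences that use air was not tested. The comparison in SO2 uses neither array for its means.

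**Figure D2:**
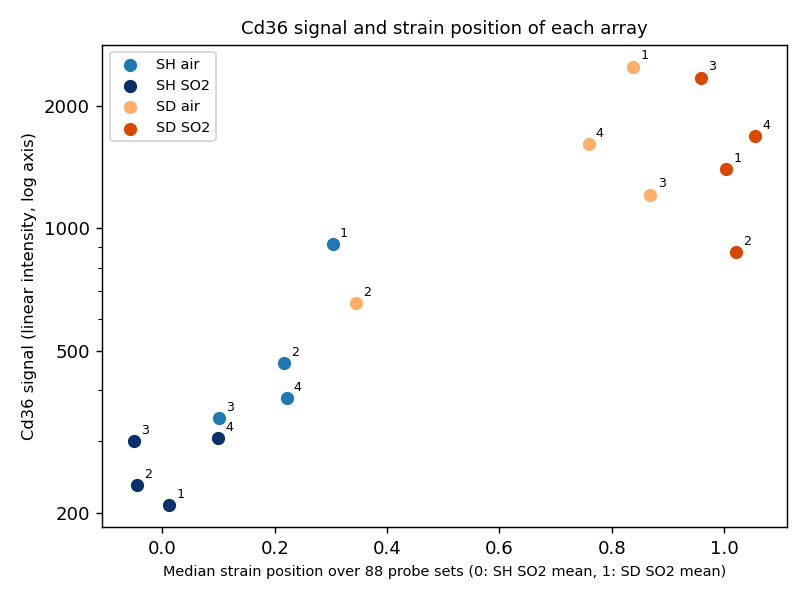
Cd36 signal (linear intensity, log axis) of each of the 16 arrays against its median position between the strains over 88 other probe sets (0 is the SH SO2 mean and 1 the SD SO2 mean); colours are groups and numbers are replicates. SD air replicate 2 lies at 0.345, beside SH air replicate 1 at 0.303, while the other SD air arrays lie at 0.759 to 0.869. The SO2 arrays lie near 0 and 1 by construction, since they chose the 88 probe sets and set the scale.

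The cytosolic fatty acid binding proteins differed from Cd36 and from one another. Fabp5, the epidermal type, which is also made by macrophages and endothelium, had signals of 1629.1, 1970.8, 2024.6 and 2161.5 in SH SO2 lungs and of 2573.7, 3253.8, 2485.1 and 2931.5 in SH air lungs. All SO2 values were below all air values. The lowest, 1629.1, was on SH SO2 replicate 1, the array of highest actin ratio. The means were 1946 ± 226 and 2811 ± 353, and the difference of -0.53 (SE 0.125) had the smallest p of the members in this comparison, ranking 12th of all probe sets, and was not called (limma adjusted p = 0.402). It lay between -0.58 and -0.41 in 27 other settings. The summed macrophage markers overlapped between these groups, at 43905 to 49199 in SH SO2 and 47222 to 49648 in SH air lungs, and their part in the Fabp5 values was not tested.

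In SD lungs Fabp5 signals were 3319.3, 2866.7, 2983 and 2547.8 in air and 2502.3, 2631.9, 3247.7 and 2350.2 in SO2. These groups overlapped, and the difference was -0.13 (SE 0.125; limma adjusted p = 0.817). Tested against each other, the effects of SO2 in SH and SD rats differed by -0.40 (SE 0.177; limma adjusted p = 0.981). Under SO2, SH lungs had less Fabp5 signal than SD lungs on every array, at -0.46 (SE 0.125; limma adjusted p = 0.117), and in air the strains differed by -0.06 (SE 0.125; limma adjusted p = 0.972). These Fabp5 values without SD air replicate 2 were -0.14 for SO2 in SD rats, -0.39 between the effects and -0.069 between the strains in air (limma adjusted p = 0.840, 0.842 and 0.921). None of the 5 Fabp5 differences was called in any other setting run.

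Fabp3, the heart and muscle type, ranged from 158.7 to 376 over the 16 arrays and overlapped between groups in every comparison. Its mean was 340.8 ± 39.0 in SH air and 270.6 ± 43.6 in SH SO2 lungs, against 275.0 ± 60.9 and 232.4 ± 97.5 in SD lungs. The SO2 values were thus below the air values on average in both strains, by -0.32 in SH rats (SE 0.219; limma adjusted p = 0.948) and -0.28 in SD rats (SE 0.219; limma adjusted p = 0.764; -0.26 and adjusted p = 0.827 without SD air replicate 2), neither past the threshold. Fabp4, the adipocyte and endothelial type, was the member nearest the filter, with signals of 50.4 to 190.6. Its differences ran from -0.10 to 0.34 over the 5 comparisons, each with an SE of at least 0.331, so differences of this size were not detectable for Fabp4 with these arrays. Its values without SD air replicate 2 were 0.20 for SO2 in SD rats, 0.070 between the effects and -0.17 between the strains in air.

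Lpl, which acts first in the pathway by releasing fatty acids, had bright and even signals, from 2041.2 to 3252.6. Its means in SH lungs were 2717 ± 381 in air and 2669 ± 343 in SO2, and in SD lungs 2425 ± 233 and 2250 ± 149. The largest difference was between the strains in SO2, at 0.24 (SE 0.117, 95% interval -0.01 to 0.48; limma adjusted p = 0.503). For SO2 in SH rats the interval of the difference was -0.27 to 0.22, and in SD rats it was -0.35 to 0.14. The SD value itself was -0.11, and -0.052 without SD air replicate 2 (limma adjusted p = 0.943).

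**Figure D3:**
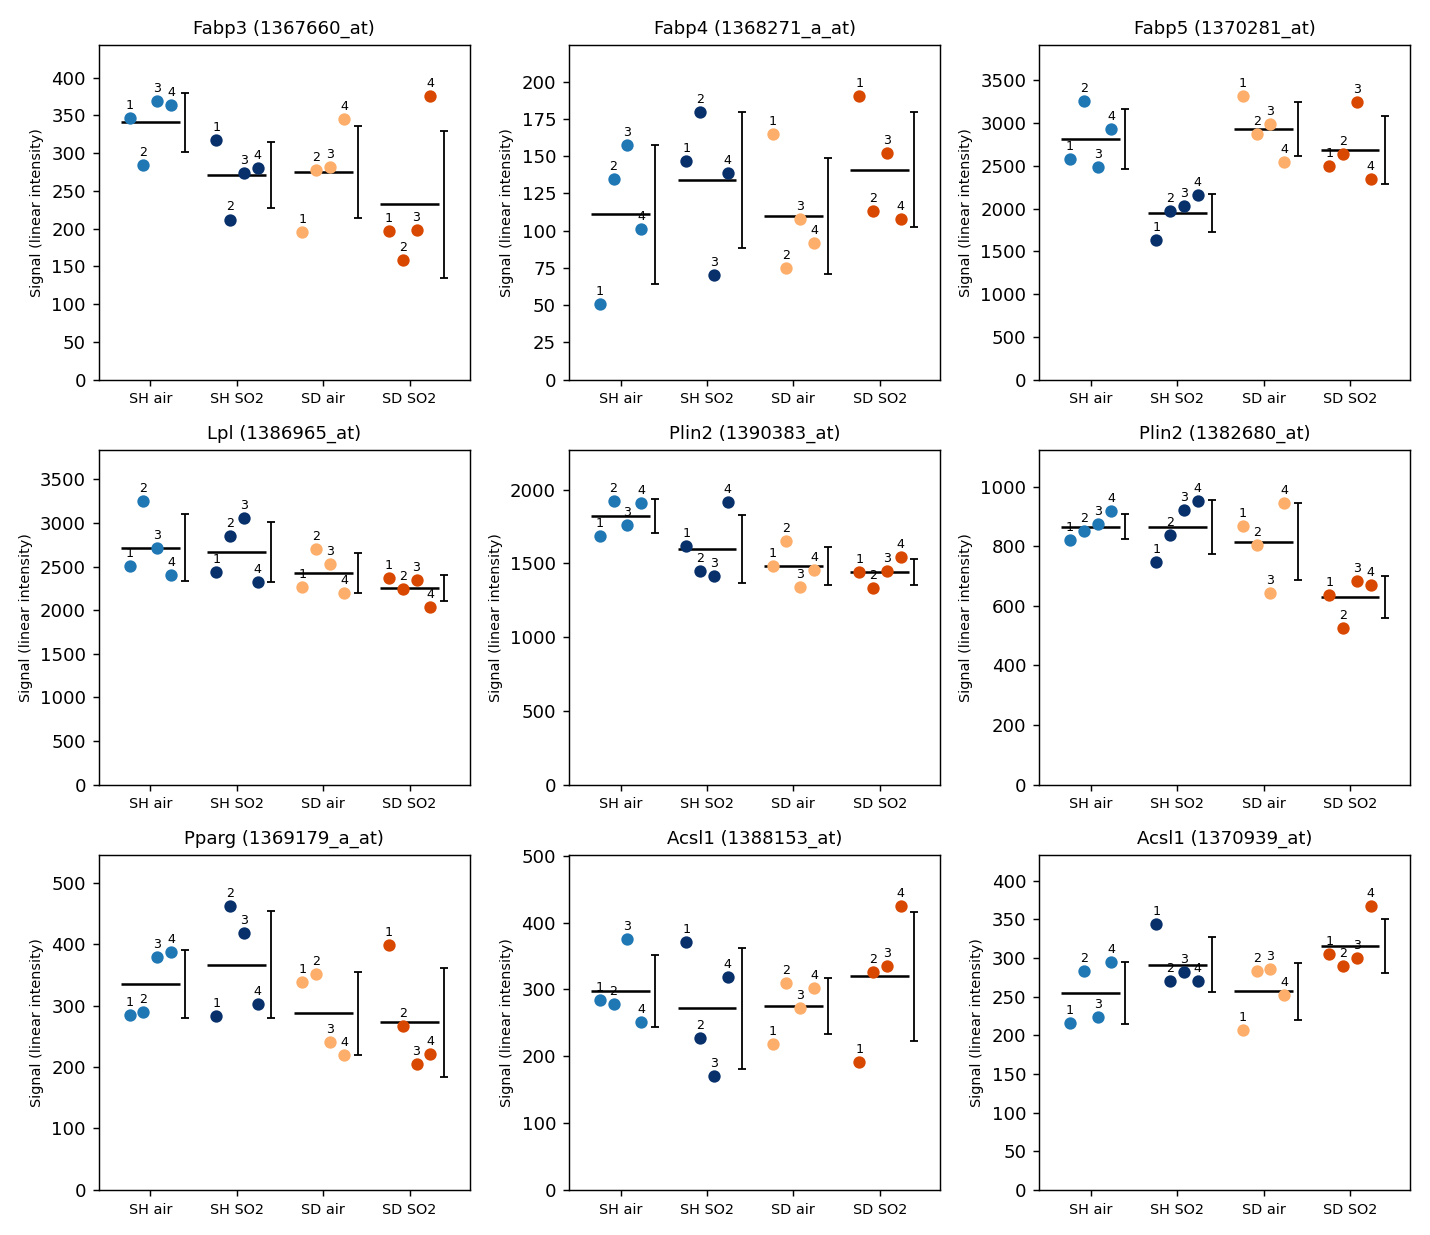
Signal (linear intensity, axes from 0) of the other 9 member probe sets in the 4 groups; each point is 1 array with its replicate number, horizontal bars are means and vertical bars are ± SD (n = 4). Fabp5 is lower on all 4 SH SO2 arrays (1629.1 to 2161.5) than on any other array, and the Plin2 panels differ in which group is lowest or highest.

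Plin2, the droplet coat protein, was measured by 2 probe sets that did not give the same picture. The brighter one (1390383_at) had signals of 1687.7, 1923.7, 1757.8 and 1911.2 in SH air and 1484.1, 1652.1, 1339.1 and 1453.1 in SD air lungs. SH values were above all SD values, by 0.30 (SE 0.110; limma adjusted p = 0.591; 0.35 and adjusted p = 0.285 without SD air replicate 2). Under SO2 this probe set differed between the strains by 0.14 (SE 0.110; limma adjusted p = 0.712), with overlap.

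The other Plin2 probe set (1382680_at) was lowest in SD SO2 lungs, at 634.9, 527.1, 684.9 and 668.4. SH SO2 lungs, at 748.3, 836.8, 920.3 and 952.1, lay above all of these. The strain difference in SO2 was 0.45 (SE 0.129; limma adjusted p = 0.135), and it was called in 1 added setting, with measures of array quality as covariates, at 0.50 (limma adjusted p = 0.0483). Against SD air lungs, at 868.6, 804.2, 642.3 and 945.7, the SD SO2 values were lower by -0.36 on average and overlapped at 1 air array (SE 0.129; limma adjusted p = 0.477). In air this probe set differed between the strains by 0.10 (SE 0.129; limma adjusted p = 0.952). These differences were, without SD air replicate 2, -0.36 (limma adjusted p = 0.535) and 0.096 (limma adjusted p = 0.891).

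Acsl1, the enzyme that activates fatty acids for use, also had 2 probe sets. That of higher mean (1388153_at) overlapped between groups in every comparison, with signals of 170.2 to 424.8 and differences from -0.33 to 0.16. Those that use SD air were, without SD air replicate 2, 0.22 for SO2 in SD rats, -0.39 between the effects and 0.16 between the strains. The other (1370939_at) had signals of 305.5, 289.9, 300.4 and 367.1 in SD SO2 lungs and of 207, 283.2, 285.4 and 251.5 in SD air lungs. All SO2 values were above all air values, though by 0.29 only (SE 0.156; limma adjusted p = 0.665; 0.33 and adjusted p = 0.626 without SD air replicate 2). In SH lungs the same probe set was at 215.6, 283.3, 224.2 and 294.6 in air and 343.8, 270.4, 281.4 and 270.1 in SO2, which overlapped (0.19, SE 0.156; limma adjusted p = 0.948).

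Pparg, the receptor upstream of several members, had signals from 204.2 to 461.9. SH means were 335.0 ± 55.6 in air and 366.5 ± 86.9 in SO2, and SD means 287.1 ± 67.0 and 272.5 ± 88.2. The strain difference was 0.23 in air (SE 0.215; limma adjusted p = 0.915; 0.33, SE 0.231 and adjusted p = 0.716 without SD air replicate 2) and 0.42 in SO2 (SE 0.215, 95% interval -0.03 to 0.87; limma adjusted p = 0.525). Both were above 0, the opposite side from Cd36, and neither was called.

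The members' counts can be read against those of all 11107 probe sets tested. For SO2 in SH rats limma called 0 of 10 member probe sets and 0% of all; at an unadjusted p under 0.05 were 2 members (Cd36 and Fabp5) and 538 of all probe sets, or 4.84%. Groups did not overlap for the same 2 members, against 4.17% of all probe sets. The median difference was -0.094 over the members and 0.017 over all probe sets.

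In SD rats SO2 left 0 of 10 members and 0% of all probe sets called by limma. At an unadjusted p under 0.05 was 1 member (Plin2, 1382680_at), beside 915 of all probe sets, or 8.24%. Groups did not overlap for 1 member (Acsl1, 1370939_at), against 3.54% of all. For the difference between the strains in the SO2 effect limma called 0 members and 0% of all probe sets, with 1 member (Fabp5) and 4.65% of all at an unadjusted p under 0.05. Without SD air replicate 2 limma called 0 members in either comparison. At an unadjusted p under 0.05 it then had the same Plin2 probe set and 8.25% of all for SO2 in SD rats, and 0 members and 5.91% of all for the difference between the strains.

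Between the strains in air, limma called 0 members and 0% of all probe sets, with 2 members (Cd36 and Plin2, 1390383_at) and 6.39% of all at an unadjusted p under 0.05, and 1 member (that of Plin2) and 4.02% of all without overlap. Without SD air replicate 2 the call was 1 member, Cd36, against 0.774% of all probe sets, and Cd36 and the same Plin2 probe set did not overlap, against 11.3% of all. Between the strains in SO2, limma called 1 of 10 members against 0.81% of all probe sets. Under an unadjusted p of 0.05 were 3 members (Cd36, Fabp5 and Plin2, 1382680_at) and 10.1% of all, and groups did not overlap for these 3, against 5.58% of all. In SO2, 5 member probe sets were above 0 and 5 below, with a median of 0.022 over the members and 0.00039 over all probe sets.

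**Figure D4:**
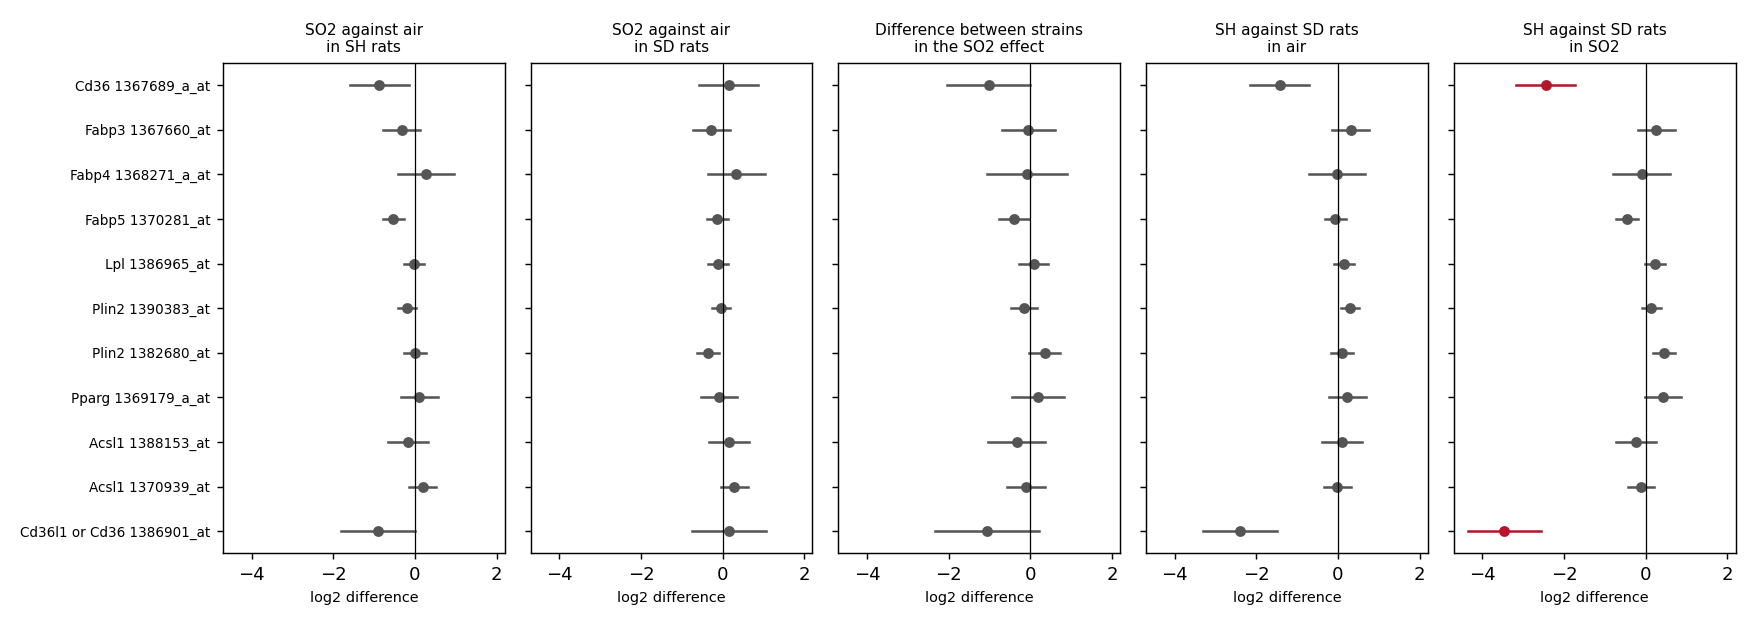
Log2 differences of the 10 member probe sets and of the probe set annotated to Cd36l1 and Cd36 in the 5 comparisons; points are limma estimates, lines are 95% intervals, and red marks an adjusted p under 0.05. The 2 red points are Cd36 (-2.45) and the probe set annotated to both copies (-3.46) for SH against SD rats in SO2.

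A wider set of 87 genes around fatty acid use had 75 genes on the array, of which 61 were tested. With all arrays limma called 0 of the 61 in each of the 5 comparisons. Of all probe sets it called 0.81% for the strains in SO2 and 0% otherwise. The 61 held 2, 4, 0, 4 and 4 genes at an unadjusted p under 0.05. The order is SO2 in SH rats, SO2 in SD rats, the difference between these, the strains in air and the strains in SO2. Of all probe sets 4.84, 8.24, 4.65, 6.39 and 10.1% were at such a p, in the same order. The medians of the 61, -0.029, -0.065, 0.061, 0.0041 and 0.049, stand beside medians of 0.00039 to 0.017 over all probe sets. With SD air replicate 2 left out, such a p was found for 3 genes (4.92%) for SO2 in SD rats, 1 (1.64%) for the difference and 4 (6.56%) for the strains in air. All probe sets gave 8.25, 5.91 and 9.73%. In air 1 gene, Med1, was then called, against 0.774% of all probe sets.

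Among transporters and activating enzymes, 9 of 16 genes were tested. Acsl4, which activates arachidonic acid, was at -0.35 with SO2 in SH rats (SE 0.143; limma adjusted p = 0.948). Slc27a1, another fatty acid transporter, was at -0.32 in SH against SD lungs in air (SE 0.135; limma adjusted p = 0.686; -0.38 and adjusted p = 0.375 without SD air replicate 2). Neither passed, and no transporter of this list had an unadjusted p under 0.05 between the strains in SO2, where Cd36 was called. Of lipase partners and lipoprotein receptors, 6 of 12 genes were tested and 0 reached an unadjusted p of 0.05 by limma in any comparison.

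Of storage and release genes, 12 of 18 were tested. G0s2, an inhibitor of triglyceride lipase, measured 374.3 ± 105 in SD SO2 and 584.3 ± 102 in SD air lungs (-0.64, SE 0.170; limma adjusted p = 0.329; -0.59 and adjusted p = 0.443 without SD air replicate 2). It was at 0.45 in SH against SD lungs in SO2 (SE 0.170; limma adjusted p = 0.314). Lipe, hormone-sensitive lipase, was at -0.48 with SO2 in SD rats (SE 0.228; limma adjusted p = 0.594), and Lipa, the lysosomal lipase, at 0.32 in SH against SD lungs in air (SE 0.121; limma adjusted p = 0.607). Lipe was at -0.46 and Lipa at 0.38 without SD air replicate 2 (limma adjusted p = 0.654 and 0.282). None of these passed the threshold.

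Oxidation genes had 22 of 24 members tested. Cpt1a, which admits fatty acids to mitochondria, measured 1220 ± 70.7 in SH SO2 and 893.3 ± 81.2 in SH air lungs (0.45, SE 0.123; limma adjusted p = 0.653), and was at 0.34 in SH against SD lungs in SO2 (SE 0.123; limma adjusted p = 0.270). In that comparison Acaa2, a thiolase, was at 0.62 (SE 0.224; limma adjusted p = 0.274) and Decr1, a reductase of unsaturated acyl-CoA, at -0.26 (SE 0.119; limma adjusted p = 0.466). Eci1, an isomerase of the same pathway, was at -0.33 with SO2 in SD rats and -0.37 in SH against SD lungs in air, where both values share the SD air arrays (limma adjusted p = 0.562 and 0.616; -0.40 and -0.43, with adjusted p of 0.508 and 0.318, without SD air replicate 2). Among PPAR receptors and partners, 12 of 17 were tested, and Med1, a coactivator subunit, was at 0.60 in SH against SD lungs in air (SE 0.171; limma adjusted p = 0.312). Its difference in air was 0.79 without SD air replicate 2 and was called (SE 0.149; limma adjusted p = 0.0135). Med1 was at 0.39 with SO2 in SD rats, again against the SD air arrays (SE 0.171; limma adjusted p = 0.576; 0.58 and adjusted p = 0.290 without that array).

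Cd36 is made by several cell types, and in whole lung fewer cells of a type cannot be told apart from less RNA per cell. Markers of those types were summed over their genes on each array. Between SH SO2 and SD SO2 lungs the endothelial sum (8 of 10 genes) overlapped, at 21985 to 24092 against 20602 to 24074. The macrophage sum (6 of 12 genes) overlapped too, at 43905 to 49199 against 44064 to 60037. The adipocyte sum (7 of 10 genes) was higher in SH, at 1618 to 2042 against 1199 to 1505, the opposite side from Cd36. Limma called 1 of its 5 tested genes, Car3, a carbonic anhydrase of fat and muscle, at 1.02 (SE 0.150; limma adjusted p = 0.000975). A pair of adipocyte-defining genes, Lep at 7.8 to 23.8 and Plin1 at 15.6 to 144.9, lay under the filter.

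The heart muscle sum (9 of 10 genes) was 2482 to 3994 in SH SO2 and 1427 to 2585 in SD SO2 lungs. The platelet and erythroid sum (5 of 8 genes) did not overlap and was lower in SH, at 8701 to 11159 against 11922 to 12690. The brightest genes weigh most in such a sum, and the median log2 difference of its 5 tested genes was -0.071. Of the tested markers of endothelium (8), macrophages (6), heart muscle (6), platelets and erythroid cells (5) and alveolar type II cells (8), limma called 0 in any comparison with all arrays, and 0 in those that use SD air once SD air replicate 2 was left out. The part of these cell types in the Cd36 difference was not tested.

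Neighbours of Cd36 on chromosome 4 were not called. Of the 5 nearest genes on each side that had a probe set of their own, 6 were tested: Gnai1, Phtf2, Ptpn12, Fgl2, Sema3c and Cacna2d1. Limma called 0 of the 6 in any comparison with all arrays, beside 0.81% of all probe sets for the strains in SO2 and 0% otherwise. It called 0 of the 6 in those that use SD air once SD air replicate 2 was left out, beside 0.774% of all for the strains in air. Fgl2 and Sema3c had an unadjusted p under 0.05 between the strains in SO2, as had 10.1% of all probe sets. Sema3c had such a p in air without SD air replicate 2, as had 9.73% of all. In SO2, Fgl2, a secreted fibrinogen-like protein, measured 549.8 ± 105 in SH and 825.0 ± 271 in SD lungs (-0.52, SE 0.218; limma adjusted p = 0.379). Sema3c, an axon and vessel guidance factor, was on the other side, at 2696 ± 453 against 2024 ± 153 (0.40, SE 0.164; limma adjusted p = 0.373).

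Patterns most like that of Cd36 over the 16 arrays, by Pearson's r of log2 values, belonged to Cyp2f4 (0.903), Terf2ip (0.895), RT1-Ba (0.895), Cd300c2 (0.890), Atg13 (0.889) and Defb4 (0.888). The arrays share strain in blocks of 8, and r within a strain was lower in most cases. Within SH arrays it ran from 0.371 for RT1-Ba to 0.724 for Terf2ip, and within SD arrays from 0.497 for Terf2ip to 0.915 for RT1-Ba. The probe set annotated to both copies had an r of 0.957 over all arrays, 0.875 within SH and 0.824 within SD arrays. Among the other members r over all arrays was 0.641 for Fabp5 and lay between -0.582 (Lpl) and 0.0442 (Acsl1) for the rest, each by its probe set of highest mean. Terf2ip, a telomere-binding protein, was also followed because its signals set SD air replicate 2 apart in an earlier account of these data. It is among the 88 probe sets of the strain position, so its values are no independent support for that position. Terf2ip measured 693.8 on SD air replicate 2 and 1982 to 2363 on SD air replicates 1, 3 and 4. Cd36 was at 655.1 and at 1210.6 to 2495.4 on the same arrays, a wider spread.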

How the data were processed

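RNA of 16 lung samples was hybridised to 1-colour Affymetrix arrays. The deposited table holds a linear intensity for each probe set on each array, made by the authors with the Affymetrix software GCOS, per the submitters' processing notes; the version and algorithm were not given in the sources used here. Precision is limited by the number of arrays. Of 15866 probe sets (57 controls were left out), 12783 had 1 gene symbol, 312 several and 2771 none in the platform annotation. Values were taken as log2(intensity + 16), which understates changes of dim probe sets, and the 30% with the lowest mean were left out. Limma 3.58.1 in R 4.3.3 fitted 1 mean per group (lmFit, eBayes with a trend, 12 residual degrees of freedom, no covariate). On simulated data for SO2 in SH rats (11107 probe sets), this recovered 88% of log2 changes of 1 and 99% of changes of 2. The simulation held 100 changed probe sets of each size and gave 4 false calls. The changed probe sets were drawn only from the 50% with the highest mean, and the spread was normal and independent between arrays. Recovery of dimmer tested probe sets, such as that of Fabp4, was therefore not measured. Recovery depends on the spread of a probe set and on how many others change, so these shares do not hold for each member. In the real data of this comparison limma called 0 probe sets, and Cd36, at -0.87 (SE 0.345), had a limma adjusted p of 0.948.

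Named are all member probe sets, up to 3 genes of smallest p per wider list and comparison (here those at an unadjusted p under 0.05), the 6 genes most like Cd36, its 5 neighbours on each side and Terf2ip. In summaries the probe set of highest mean stands for its gene. Members, lists and markers were chosen with earlier results of these data known. Other settings were offsets of 1 and 64, quantile normalization, no filter or 50%, the replicate number as a block, the number in the sample title as a covariate, no trend, only the groups compared and each array left out; 2 were added after seeing the data, namely SD air replicate 2 and SH air replicate 1 both left out, and the 10th percentile of signal with the actin ratio as covariates. Replicate numbers follow title order and give no pairing. Neighbour order and promoters are from RefSeq (GRCr8).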

Additional observations from a re-analysis of the deposited data

Results flagged for a closer look

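Over 44 groups of 4 arrays checked for a value far from the other 3, 2 were flagged. Chance gives about 1 in 20, so the count is near what chance alone would give. The probe set annotated to both Cd36l1 and Cd36 measured 1413.1 on SD air replicate 2, while its 3 fellow SD air arrays gave 4964.8 to 5356.2. The Acsl1 probe set 1370939_at measured 343.8 on SH SO2 replicate 1, against 270.1 to 281.4 on the other SH SO2 arrays.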

How the results depend on the processing

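Cd36 in SH against SD rats in SO2 kept its direction and its call in all 27 other settings. Of the members called, the count for SH against SD rats in air was 0 with all arrays, 0 to 1 with single arrays left out (1 without SD air replicate 2) and 1 with SD air replicate 2 and SH air replicate 1 both left out; in SO2 it was 2 with array quality as covariates. The replicate number follows title order only, so it cannot show whether samples were paired. Of 24 same-numbered pairs, 4 had a correlation above 0.1 (-0.433 to 0.151). A pair with different numbers, SD air replicate 2 and SH SO2 replicate 4, had 0.323. With the replicate number as a block, Cd36 in SO2 was at -2.45 and no member call changed. For the probe set of highest mean of each member and the Cd36l1 or Cd36 probe set, 1158 values kept direction and side of the threshold. Of the rest, 6 passed it anew, 0 lost it and 37 changed sign, none of them called. The cause was not tested. The other probe sets of Plin2 and Acsl1 are outside these counts and the signs and ranges below. That of Plin2 (1382680_at) passed the threshold in SO2 with array quality as covariates. That of Acsl1 (1370939_at) turned from -0.014 between the strains in air to 0.0060 with quantile normalization. It was 0.0076 with the title number as a covariate and 0.034 without SD air replicate 2. Fabp4 was left out by the 50% filter, and the difference between the strains has no value from only the groups compared.

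With SD air replicate 2 and SH air replicate 1 both left out, signs turned for SO2 in SH rats in Fabp4 (-0.016), for SO2 in SD rats in Cd36 (-0.19), Plin2 (0.014), Pparg (0.011) and the Cd36l1 or Cd36 probe set (-0.31), for the difference between the strains in Lpl (-0.0089) and for the strains in air in Fabp4 (0.12). For SO2 in SH rats, Lpl turned to 0.0056 with quantile normalization and to 0.00099 with the title number as a covariate. That covariate also turned Fabp4 to 0.17 for the difference between the strains, and array quality as covariates turned Pparg to 0.0019 for SO2 in SD rats.

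With single arrays left out, values for SO2 in SH rats ran from -0.016 to 0.51 in Fabp4, -0.092 to 0.065 in Lpl, -0.0071 to 0.22 in Pparg and -0.33 to 0.026 in Acsl1. For SO2 in SD rats they ran from -0.19 to 0.44 in Cd36, -0.086 to 0.014 in Plin2, -0.28 to 0.025 in Pparg and -0.31 to 0.33 in the Cd36l1 or Cd36 probe set. For the difference between the strains they ran from -0.19 to 0.20 in Fabp3 and -0.35 to 0.17 in Fabp4. For the strains in air they ran from -0.21 to 0.26 in Fabp4, -0.13 to 0.00095 in Fabp5 and -0.010 to 0.17 in Acsl1, and in SO2 from -0.24 to 0.15 in Fabp4.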
